A study of Mus musculus with 6 samples.

Results

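The neuregulin and EGF ligands Nrg1, Ereg, Areg, Hbegf and Tgfa, the receptors Egfr and Erbb2 and the receptor inhibitor Errfi1 were examined in sorted intestinal fibroblasts of mouse pups. Members were taken by gene name from the deposited gene table, and 8 of 8 were found among its 15238 genes. RNA was sequenced in bulk from 6 libraries of cells that lacked CD45, EpCAM and CD31 and carried podoplanin, at postnatal day 9, in the Balb/c strain. Of these, 3 libraries (replicates 4, 9 and 10) came from DdblGata1 pups, in which a GATA-site element of the Gata1 promoter is deleted in the germline and eosinophils are lacking. The other 3 (replicates 1, 3 and 4) came from wild-type pups. The title of the study places the comparison within the question of how eosinophils act on smooth muscle formation in villi after birth. Whether each library is a separate animal is not stated in the labels, so p-values measure only the spread between these libraries, which may be technical.

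EGF family ligands are made as membrane-bound precursors that ADAM proteases cut free, and they activate receptors of the ErbB family, which pair up on binding and signal through Ras and ERK. EGFR is bound by amphiregulin (Areg) and TGF alpha (Tgfa), both EGFR and ErbB4 by epiregulin (Ereg) and HB-EGF (Hbegf), and ErbB3 and ErbB4 by neuregulin 1 (Nrg1). ErbB2 has no ligand of its own and serves as the partner of the others, and Errfi1, also called Mig6, binds the active kinases of EGFR and ErbB2 and shuts them off. In the intestine, stromal cells beneath the epithelium supply EGF ligands and neuregulin to the crypts and villi.

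Across the 8 genes, Errfi1 and Egfr had higher values in every DdblGata1 library than in any wild-type library, and Ereg and Hbegf had lower ones. Nrg1, Areg, Tgfa and Erbb2 overlapped between the groups. No member passed edgeR's quasi-likelihood test after Benjamini-Hochberg adjustment at 0.05 over all genes, which called 0 of 15238 genes (0.0%). At an unadjusted p under 0.05, edgeR gave 2 of the 8 members, Errfi1 and Egfr, both higher in DdblGata1, against 10.3% of all genes in either direction and 6.03% higher and 4.23% lower in DdblGata1. With DdblGata1 replicate 10 left out, Errfi1 alone passed, against 5.37% of all genes in either direction. With other single libraries left out, edgeR's share of all genes ran from 6.56% (DdblGata1 replicate 9) to 17.8% (DdblGata1 replicate 4). Groups did not overlap for 2 members higher and 2 lower in DdblGata1, against 8.98% of all genes higher and 7.34% lower. DESeq2 called 214 genes (1.46% of those it tested), 142 of them higher in DdblGata1 (0.971%), and among the members only Errfi1.

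**Figure D1:**
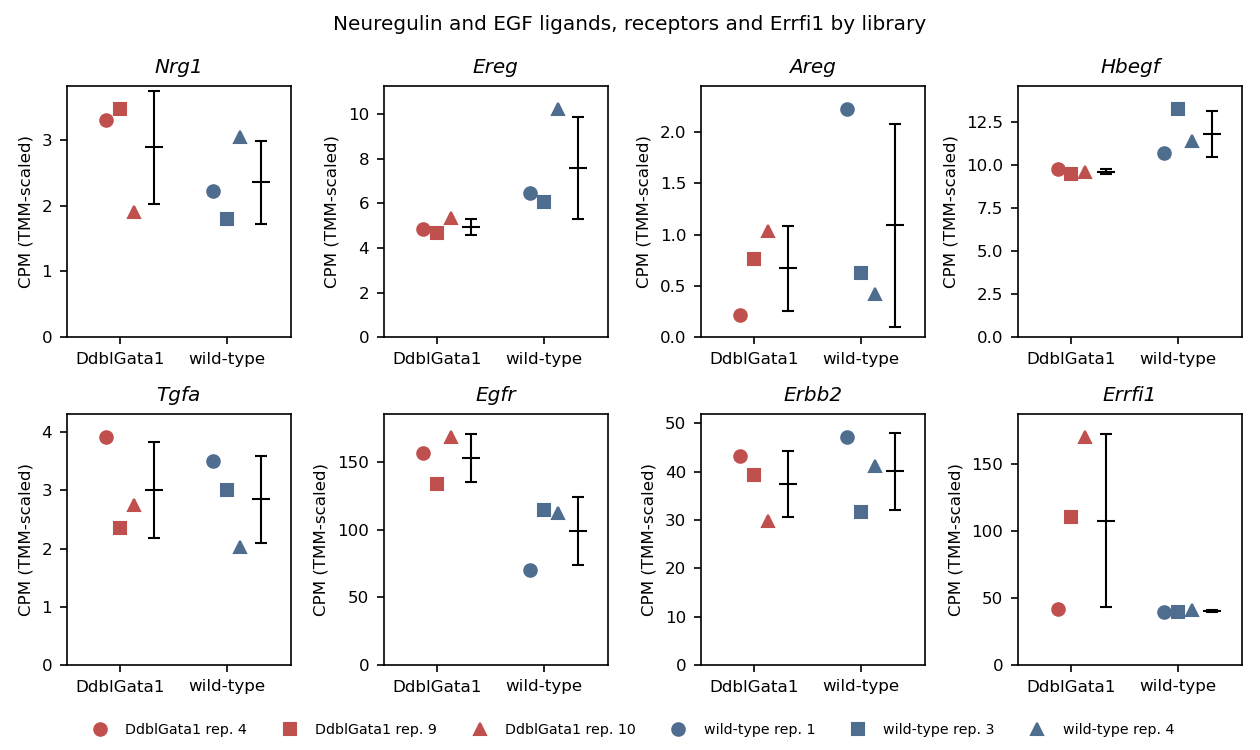
TMM-scaled CPM (counts scaled to library size) of the 8 genes, with each point 1 library, DdblGata1 in red and wild-type in blue, and the bar beside each group its mean and SD (n = 3 libraries per group). Errfi1 stood at 110 and 170 CPM in DdblGata1 replicates 9 and 10 but at 41.5 CPM in DdblGata1 replicate 4, next to 39.4 to 41.3 CPM in wild-type libraries.

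Depth was alike between groups, with 28110454 to 30993472 counts in DdblGata1 libraries and 30210644 to 31210800 in wild-type libraries, so that 3 counts, the limit a count of 0 allows, correspond to 0.0961 to 0.107 CPM (counting error only). Fibroblast markers were abundant in all 6 libraries, and Pdpn, the gene of the sorted marker, had 41.5 to 53.9 CPM in DdblGata1 and 25.1 to 42.0 CPM in wild-type libraries. Wild-type replicate 1 stood apart: its 10 epithelial markers summed to 1265 CPM, against 266 to 328 CPM in DdblGata1 libraries and 231 and 242 CPM in the other wild-type libraries. Gata1 itself had 0 counts in the DdblGata1 libraries and 0 or 1 in the wild-type libraries, so it checks no label in these cells. Of the eosinophil genes, Epx had 0 counts in all 6 libraries, and Ccr3, which encodes an eotaxin receptor, had 7, 5 and 8 counts in DdblGata1 replicates 4, 9 and 10 and 23, 32 and 11 counts in wild-type replicates 1, 3 and 4, without overlap (unadjusted p 0.0239 and adjusted p 0.452 by edgeR).

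Expressed per transcript length, as TPM, the levels ran in the order Errfi1, Egfr, Erbb2, Hbegf, Ereg, Areg, Nrg1 and Tgfa, averaged over all 6 libraries. Errfi1 averaged 66.3 ± 38.4 TPM in DdblGata1 and 23.7 ± 1.49 TPM in wild-type libraries (SD, n = 3 each), and Egfr averaged 42.8 ± 4.34 TPM in DdblGata1 and 26.3 ± 6.78 TPM in wild-type. In wild-type libraries the ranges of these neighbours overlapped, with Errfi1 at 22.6 to 25.4 TPM and Egfr at 18.5 to 31.1 TPM. Erbb2 averaged 11.2 ± 2.32 TPM in DdblGata1 and 11.3 ± 2.44 TPM in wild-type libraries. The strongest ligand was Hbegf, at 7.34 ± 0.245 TPM in DdblGata1 and 8.49 ± 0.765 TPM in wild-type libraries. The remaining ligands were low, from 0.450 to 5.14 TPM in single libraries, and the ranges of Ereg and Areg and those of Areg, Nrg1 and Tgfa overlapped. Errfi1 lay above 79.6% of all genes by mean TPM and Egfr above 73.7%, but Nrg1 lay above 13.2% and Tgfa above 11.2%.

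Errfi1 lies on chromosome 4 (GRCm38, 150853919 to 150868892, forward strand) and has transcripts from separate starts, so its promoters are shown here. RefSeq promoters on GRCm38.p6 were used for 5 of the 8 members (Areg, Egfr, Erbb2, Errfi1 and Tgfa). Whether RefSeq lists promoters for the remaining members is not reported here. Each window holds 250 bases before and 50 after a start, from the reference strain and not from Balb/c. Capitals mark a cyclic AMP response element (CRE, TGACGTCA) or a TATA box (TATAAA), searched on both strands. The downstream Errfi1 promoter (chr4:150854820-150855119, forward strand) starts at base 150855070, 3 bases from the annotated start of Errfi1-201. The upstream one (chr4:150853546-150853845, forward strand) starts at base 150853796, before the annotated start of Errfi1-202 at base 150853919. The Areg promoter (chr5:91139349-91139648, forward strand) is given beside them. Among the promoters used for these 5 members, other than those of Errfi1, it alone held both elements.
Errfi1 downstream: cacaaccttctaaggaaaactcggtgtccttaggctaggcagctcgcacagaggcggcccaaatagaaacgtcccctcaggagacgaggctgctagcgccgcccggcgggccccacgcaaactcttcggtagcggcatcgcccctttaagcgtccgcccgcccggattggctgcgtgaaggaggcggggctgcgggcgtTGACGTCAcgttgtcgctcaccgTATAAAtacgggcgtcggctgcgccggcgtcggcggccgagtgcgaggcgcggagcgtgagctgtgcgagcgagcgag
Errfi1 upstream: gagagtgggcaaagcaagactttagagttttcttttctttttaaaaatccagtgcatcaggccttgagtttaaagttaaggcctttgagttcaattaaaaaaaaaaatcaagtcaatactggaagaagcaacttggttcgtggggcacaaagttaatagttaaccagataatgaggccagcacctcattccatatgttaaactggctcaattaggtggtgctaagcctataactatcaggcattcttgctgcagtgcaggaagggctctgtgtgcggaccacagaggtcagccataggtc
Areg: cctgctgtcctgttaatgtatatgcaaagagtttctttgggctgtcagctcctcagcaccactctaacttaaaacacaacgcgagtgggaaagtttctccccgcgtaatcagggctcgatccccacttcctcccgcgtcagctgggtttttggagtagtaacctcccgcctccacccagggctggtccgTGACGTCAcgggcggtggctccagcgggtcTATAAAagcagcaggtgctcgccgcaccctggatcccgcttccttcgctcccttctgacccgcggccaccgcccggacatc

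In the downstream Errfi1 promoter the CRE began 51 bases before the start and the TATA box 28 bases before it, and in the Areg promoter they began 61 and 31 bases before it. A CRE was present in 1.8% and a TATA box in 13.6% of 32851 RefSeq promoters of the same length. The upstream Errfi1 promoter held neither, nor a match to the other motifs searched, which were AP-1 (TGANTCA, in 7.8% of promoters), the GC box (GGGCGG, 35.7%), the E-box (CACGTG, 7.2%), the CArG box (1.6%) and a glucocorticoid receptor site (ACANNNTGT, 6.8%). The downstream window was also richer in G and C, at 66.7%, against 42.0% in the upstream window. Such matches describe the letters only.

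Among the ligands, Ereg, which lies close to Areg on chromosome 5 (91074622 to 91093646, forward strand), had 4.84, 4.67 and 5.36 CPM in DdblGata1 replicates 4, 9 and 10, against 6.47, 6.07 and 10.2 CPM in wild-type replicates 1, 3 and 4. Every DdblGata1 library lay below every wild-type library, and wild-type replicate 4 was the highest. The log2 fold change was -0.61 ± 0.28 (SE), with an unadjusted p of 0.0603 and an adjusted p of 0.498 by edgeR. Without wild-type replicate 4 it was -0.34.

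Hbegf, on chromosome 18 (36504927 to 36515805, reverse strand), had 9.79, 9.46 and 9.62 CPM in DdblGata1 replicates 4, 9 and 10 and 10.7, 13.3 and 11.4 CPM in wild-type replicates 1, 3 and 4. The DdblGata1 libraries lay close together, 9.63 ± 0.163 CPM against 11.8 ± 1.31 CPM in wild-type (SD, n = 3 each), and all below the wild-type ones. Its log2 fold change was -0.29 ± 0.19 (SE; adjusted p 0.587 by edgeR), a 1.23-fold difference. Pericyte markers, 5 of 5 measured and none at 0 in any library, summed to 1370, 1471 and 1394 CPM in DdblGata1 and 2326, 1945 and 1771 CPM in wild-type libraries, likewise without overlap. Interstitial cell of Cajal markers, 5 of 5 measured and none at 0, summed to 219, 467 and 470 CPM in DdblGata1 and 598, 728 and 481 CPM in wild-type libraries, also without overlap. All 7 smooth muscle markers had negative log2 fold changes, as had 7726 of 15238 genes tested. At an unadjusted p under 0.05 by edgeR, 4 of the 7 were lower, against 4.23% of all genes. After adjustment edgeR called 0 of the 7. For 1 of the 7 the DdblGata1 values lay below the wild-type values without overlap, against 7.34% of all genes. The sums of these smooth muscle markers overlapped, at 6779 to 11000 CPM in DdblGata1 and 9934 to 17430 CPM in wild-type libraries. The part of these cell types in the values of Ereg and Hbegf was not tested.

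Nrg1, on chromosome 8 (31814551 to 32884029, reverse strand), had 3.30, 3.48 and 1.91 CPM in DdblGata1 replicates 4, 9 and 10 and 2.23, 1.79 and 3.04 CPM in wild-type replicates 1, 3 and 4. The groups overlapped, with the lowest values in DdblGata1 replicate 10 and wild-type replicate 3. The log2 fold change was 0.30 ± 0.39 (SE; adjusted p 0.789 by edgeR). Leaving out DdblGata1 replicate 4, 9 or 10 gave 0.19, 0.13 and 0.51 in that order, and leaving out wild-type replicate 3 or 4 gave 0.14 and 0.52. With the deposited surrogate variables as covariates it was 0.51. Behind these values were 59 to 105 counts in DdblGata1 and 52 to 93 in wild-type libraries. The other 9 markers on the list of telocytes and PDGFRA-high villus fibroblasts, the cells known for Nrg1 in this tissue, summed to 1215, 1290 and 1511 CPM in DdblGata1 and 1119, 1418 and 1107 CPM in wild-type libraries, and overlapped between the groups. Pdgfra made up most of that sum, at 779, 922 and 1080 CPM in DdblGata1 and 755, 1013 and 688 CPM in wild-type libraries. At an unadjusted p under 0.05 by edgeR, 1 of the 9 markers was higher and 2 were lower in DdblGata1, each without overlap. Over all genes 6.03% were higher and 4.23% lower by p, and 8.98% and 7.34% by lack of overlap. The Wnt ligand Wnt5a was higher (log2 fold change 0.45). Foxl1, the transcription factor that marks telocytes, was lower (-1.30), as was the Wnt inhibitor Frzb (-0.81). The list went both ways: counting Nrg1, 6 of 10 markers were higher by value and 4 lower. Leaving Nrg1 out, the median for the list was 0.06. The part of these cells in the Nrg1 value was not tested.

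Nrg1 has 18 annotated transcripts, and their starts differ because distinct promoters make distinct N-terminal forms of the protein. The 8 transcripts that start between bases 32009109 and 32009491 held most of the signal, with 1.56, 1.78 and 0.909 TPM in DdblGata1 replicates 4, 9 and 10 and 1.13, 0.465 and 1.44 TPM in wild-type replicates 1, 3 and 4. The farthest upstream starts, at bases 32883862 to 32884029, had 0 to 0.153 TPM in DdblGata1 libraries and were listed at 0 in wild-type libraries. The most abundant single transcript was Nrg1-203, a protein-coding form, at 0.613 ± 0.151 TPM in DdblGata1 and 0.460 ± 0.211 TPM in wild-type libraries (SD, n = 3 each). The other transcripts with at least 10% of the gene in a group were Nrg1-213, Nrg1-215 and Nrg1-205. Nrg1-205 was detected in wild-type replicate 3 alone.

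Areg, on chromosome 5 (91139599 to 91148432, forward strand), had 6, 23 and 32 counts in DdblGata1 replicates 4, 9 and 10 and 73, 18 and 13 counts in wild-type replicates 1, 3 and 4. These correspond to 0.22, 0.761 and 1.03 CPM in DdblGata1 and 2.23, 0.621 and 0.425 CPM in wild-type libraries. Wild-type replicate 1 was highest and the groups overlapped. Areg had a log2 fold change of -0.69 ± 0.78 (SE; adjusted p 0.750 by edgeR), and without wild-type replicate 1 it was 0.34. Leaving out DdblGata1 replicate 4 or 10 gave -0.29 and -1.16 in that order, and leaving out wild-type replicate 4 gave -1.08. Wild-type replicate 1 also had the highest epithelial marker sum, with 10 of 10 markers measured and none at 0 in any library. Its sum of 8 measured leukocyte markers was highest too, at 44.4 CPM against 19.5 to 26.2 CPM in all other libraries. The part of epithelial and leukocyte RNA in the Areg value was not tested.

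Tgfa, on chromosome 6 (86195223 to 86275719, forward strand), had 3.92, 2.35 and 2.74 CPM in DdblGata1 replicates 4, 9 and 10 and 3.51, 3.0 and 2.03 CPM in wild-type replicates 1, 3 and 4. The groups overlapped, and the log2 fold change of 0.08 ± 0.37 (SE; adjusted p 0.945 by edgeR) turned to -0.16 when DdblGata1 replicate 4 was left out and to -0.12 when wild-type replicate 4 was. Most of the signal came from the protein-coding transcript Tgfa-201, at 1.04 ± 0.186 TPM in DdblGata1 and 0.903 ± 0.293 TPM in wild-type libraries (SD, n = 3 each). It held 79.9 to 100% of Tgfa TPM in DdblGata1 and 67.3 to 100% in wild-type libraries. Tgfa-204, a transcript with no coding sequence, was detected in DdblGata1 replicate 4 and wild-type replicate 3 alone.

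Of the full EGF ligand family of 11 genes, 9 were in the gene table, and 0 of them passed an unadjusted p of 0.05 in either direction by edgeR, while DESeq2 gave Ereg an unadjusted p of 0.0478. Leaving out wild-type replicate 1 or 3 gave 1 lower by edgeR, and leaving out DdblGata1 replicate 4 gave 1 higher. Over all genes, edgeR gave 7.87%, 9.21% and 17.8% in either direction in these fits, in that order. The median log2 fold change of the measured ligands was -0.08, against -0.01 over all genes tested. Nrg2, another neuregulin, had 3.30, 4.50 and 5.17 CPM in DdblGata1 replicates 4, 9 and 10 and 3.26, 2.62 and 2.88 CPM in wild-type replicates 1, 3 and 4. It was the only ligand whose DdblGata1 values all lay above the wild-type values, with a log2 fold change of 0.56 ± 0.30 (SE; adjusted p 0.535 by edgeR). Btc, which encodes betacellulin, had log2 fold change -0.08, Egf -0.48 and Nrg3 0.55, all with overlapping groups. Nrg4 and Epgn were outside the gene table, with 0 to 8 and 1 to 7 counts in DdblGata1 libraries and 0 to 7 and 6 to 10 counts in wild-type libraries.

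Egfr, on chromosome 11 (16752203 to 16918158, forward strand), was the most abundant ErbB receptor and had 157, 134 and 169 CPM in DdblGata1 replicates 4, 9 and 10, against 70.4, 115 and 113 CPM in wild-type replicates 1, 3 and 4. All DdblGata1 libraries lay above all wild-type libraries, and wild-type replicate 1 was the lowest. It averaged 153 ± 18.0 CPM in DdblGata1 and 99.3 ± 25.1 CPM in wild-type libraries (SD, n = 3 each). The log2 fold change was 0.62 ± 0.21 (SE), a 1.54-fold difference, with an unadjusted p of 0.0176 and an adjusted p of 0.440 by edgeR and of 0.215 by DESeq2. Without wild-type replicate 1, in which Pdpn was also lowest at 25.1 CPM, it was 0.41 with an unadjusted p of 0.0339 by edgeR. The 9 markers of PDGFRA-low fibroblasts and trophocytes, all measured and none at 0 in any library, summed to 3215, 3083 and 3583 CPM in DdblGata1. In wild-type libraries they summed to 1915, 2601 and 2569 CPM. By value 6 of the 9 were higher in DdblGata1 and 3 lower. At an unadjusted p under 0.05 by edgeR 4 were higher and 1 lower, against 6.03% and 4.23% of all genes. The part of these cells in the Egfr value was not tested. In bulk RNA, fewer cells that express a gene and less RNA per cell cannot be told apart.

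Part of the Egfr difference in TPM lay in a short transcript with few reads, Egfr-204. Its estimated counts were 72.4 to 128.9 in DdblGata1 and 21.2 to 53.0 in wild-type libraries. Those of Egfr-201 were 3504.8 to 4356.8 in DdblGata1 and 2396.9 to 3275.4 in wild-type libraries. Egfr-204, of 716 bases and with no coding sequence, shares 77.2% of its length with exons of the full-length Egfr-201 and took 27.4 to 35.6% of Egfr TPM in DdblGata1 libraries and 14.7 to 24.9% in wild-type libraries. It had 12.2, 12.7 and 16.3 TPM in DdblGata1 replicates 4, 9 and 10 and 2.73, 6.51 and 7.74 TPM in wild-type replicates 1, 3 and 4. The 2 coding transcripts, Egfr-201 and the shorter Egfr-202, summed to 32.5, 25.1 and 29.0 TPM in DdblGata1 and 15.8, 22.7 and 23.3 TPM in wild-type libraries, again without overlap. Egfr-202, which ends early and in mouse encodes a truncated receptor, had 6.33 ± 1.98 TPM in DdblGata1 and 4.99 ± 1.05 TPM in wild-type libraries (SD, n = 3 each). With plain sums of transcript counts in place of the deposited length-scaled values, the Egfr log2 fold change was 0.45. The share of the transcripts did not differ past the threshold, with an adjusted p of 1.0 by edgeR's diffSpliceDGE, which called 24 of 9447 genes (0.254%).

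**Figure D2:**
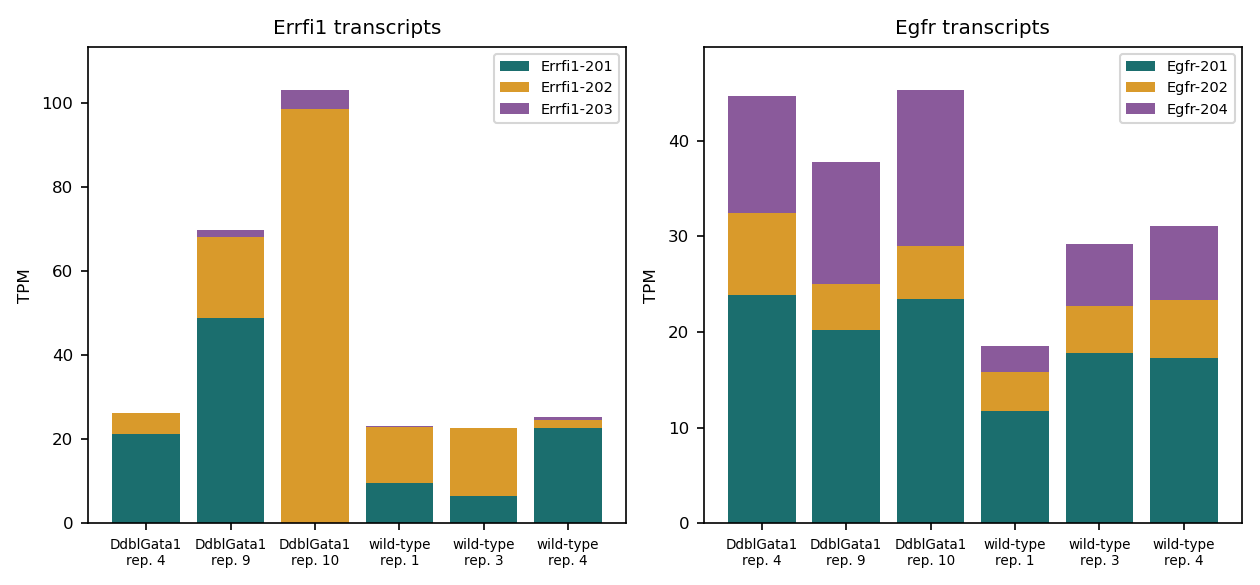
TPM of the transcripts of Errfi1 (left) and Egfr (right), stacked by library, with DdblGata1 replicates 4, 9 and 10 left of wild-type replicates 1, 3 and 4. Egfr-204 was larger in each DdblGata1 library (12.2 to 16.3 TPM) than in any wild-type library (2.73 to 7.74 TPM), while the main Errfi1 transcript differed from library to library within both groups.

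Erbb2, on chromosome 11 (98412470 to 98437716, forward strand), had 43.1, 39.3 and 29.8 CPM in DdblGata1 replicates 4, 9 and 10 and 47.2, 31.6 and 41.2 CPM in wild-type replicates 1, 3 and 4. The groups overlapped almost wholly, and the log2 fold change was -0.10 ± 0.21 (SE; adjusted p 0.873 by edgeR). Its highest value was in wild-type replicate 1, the library with the highest epithelial marker sum, and without that library the log2 fold change was 0.02. Erbb2-201, which encodes the receptor, made up 59.9 to 73.7% of Erbb2 TPM in DdblGata1 and 53.2 to 77.0% in wild-type libraries. The rest came from Erbb2-202, a transcript with no coding sequence that shares 98.2% of its length with Erbb2-201.

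Erbb3, the receptor of neuregulins with little kinase activity of its own, had 66.7, 49.0 and 50.2 CPM in DdblGata1 replicates 4, 9 and 10 and 49.6, 98.3 and 83.2 CPM in wild-type replicates 1, 3 and 4. The groups overlapped, and the log2 fold change was -0.48 ± 0.26 (SE; adjusted p 0.535 by edgeR). Its 3 highest libraries were also the 3 highest for the 5 other enteric glia markers, all measured and none at 0 in any library. These summed to 185, 105 and 119 CPM in DdblGata1 and 84.1, 242 and 215 CPM in wild-type libraries, and the part of glial RNA in the Erbb3 value was not tested. Erbb4 was near the detection limit, at 0.132 to 1.81 CPM in DdblGata1 and 0.275 to 1.21 CPM in wild-type libraries. Of the 4 receptors, Egfr alone passed an unadjusted p of 0.05 by edgeR, against 6.03% of all genes higher and 4.23% lower. With DdblGata1 replicate 10 left out, 0 passed by edgeR and 0 by DESeq2, against 5.37% and 6.56% of all genes in either direction. With wild-type replicate 1 left out, or with the surrogate variables, 1 receptor was higher and 1 lower by both tools.

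**Figure D3:**
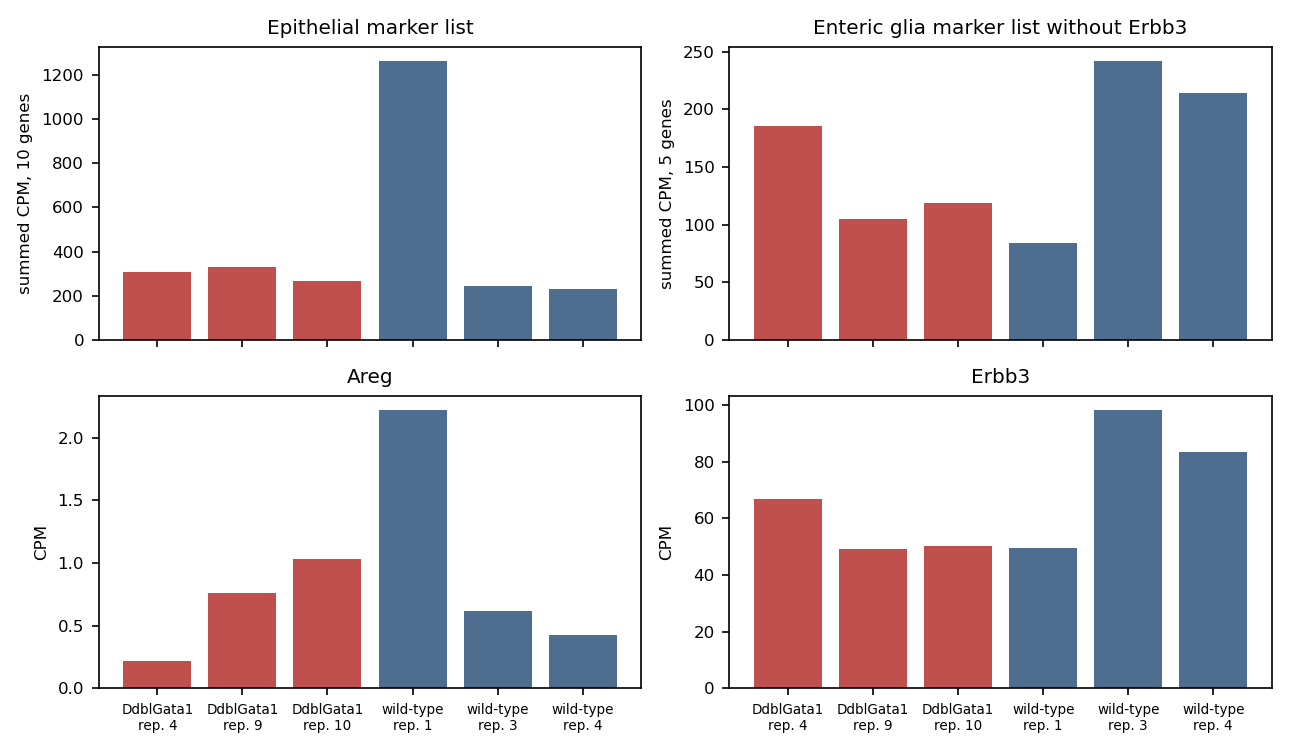
Summed CPM of the epithelial markers (top left) and of the enteric glia markers without Erbb3 (top right), above the CPM of Areg and Erbb3, by library. Areg and the epithelial sum were both highest in wild-type replicate 1 (2.23 and 1265 CPM), and Erbb3 and the glia sum were both highest in wild-type replicate 3 (98.3 and 242 CPM).

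With all 6 libraries Errfi1 had the largest log2 fold change of the members, while without DdblGata1 replicate 10 that of Areg was larger in size. Errfi1 had 1131, 3338 and 5278 counts in DdblGata1 replicates 4, 9 and 10 and 1293, 1155 and 1262 counts in wild-type replicates 1, 3 and 4, or 41.5, 110 and 170 CPM in DdblGata1 and 39.4, 39.8 and 41.3 CPM in wild-type libraries. DdblGata1 replicates 9 and 10 were far above all others, while DdblGata1 replicate 4 lay just above the highest wild-type library. The log2 fold change was 1.42 ± 0.42 (SE), a 2.67-fold difference, with an unadjusted p of 0.010 and an adjusted p of 0.416 by edgeR. DESeq2 gave an adjusted p of 0.0395, and of 0.120 to 0.548 when any library other than DdblGata1 replicate 4 was left out, against 6.05e-11 without that one. The edgeR log2 fold change was 0.90 without replicate 10, 1.38 without replicate 9 and 1.81 without replicate 4, and it was 0.73 with the surrogate variables as covariates.

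Endothelial markers, 7 of 7 measured and none at 0 in any library, summed to 112, 121 and 173 CPM in DdblGata1 replicates 4, 9 and 10 and 62.7, 85.6 and 73.4 CPM in wild-type replicates 1, 3 and 4. Tek, a receptor of angiopoietins, made up most of the sum, at 81.6, 89.2 and 151 CPM in DdblGata1 and 28.8, 56.6 and 49.4 CPM in wild-type libraries. The groups overlapped for all other markers of the list, and the median log2 fold change of the list was -0.08. The sort took cells without CD31, and Pecam1, which encodes CD31, had 5.53 to 6.97 CPM in DdblGata1 and 3.37 to 7.78 CPM in wild-type libraries. The part of endothelial RNA in the Errfi1 value was not tested.

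The ratio of Errfi1 to Egfr counts was 0.264, 0.828 and 1.01 in DdblGata1 replicates 4, 9 and 10 and 0.560, 0.347 and 0.367 in wild-type replicates 1, 3 and 4. The inhibitor was thus lowest against its receptor in DdblGata1 replicate 4 and highest in DdblGata1 replicates 9 and 10. The groups did not separate by this ratio. The ratio of Egfr to Erbb2 counts was 3.64, 3.40 and 5.66 in DdblGata1 and 1.49, 3.63 and 2.73 in wild-type libraries, and the groups overlapped here too.

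Errfi1-201, annotated at the downstream promoter with the CRE, had 21.2, 48.8 and 0.001 TPM in DdblGata1 replicates 4, 9 and 10 and 9.50, 6.46 and 22.6 TPM in wild-type replicates 1, 3 and 4. Errfi1-202, from the upstream start, had 5.13, 19.3 and 98.4 TPM in DdblGata1 and 13.4, 16.1 and 1.95 TPM in wild-type libraries. Errfi1-202 thus held from 19.5 to 95.6% of Errfi1 TPM within DdblGata1 libraries and from 7.69 to 71.4% within wild-type libraries. The transcripts share 2844 bases, 93.5% of Errfi1-201, so few reads separate them, and the usage test gave an adjusted p of 1.0 by edgeR's diffSpliceDGE. Only the sum over transcripts is compared between the groups here. Errfi1-203, a short transcript from the downstream start, had 0, 1.55 and 4.55 TPM in DdblGata1 and 0.248, 0 and 0.845 TPM in wild-type libraries.

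**Figure D4:**
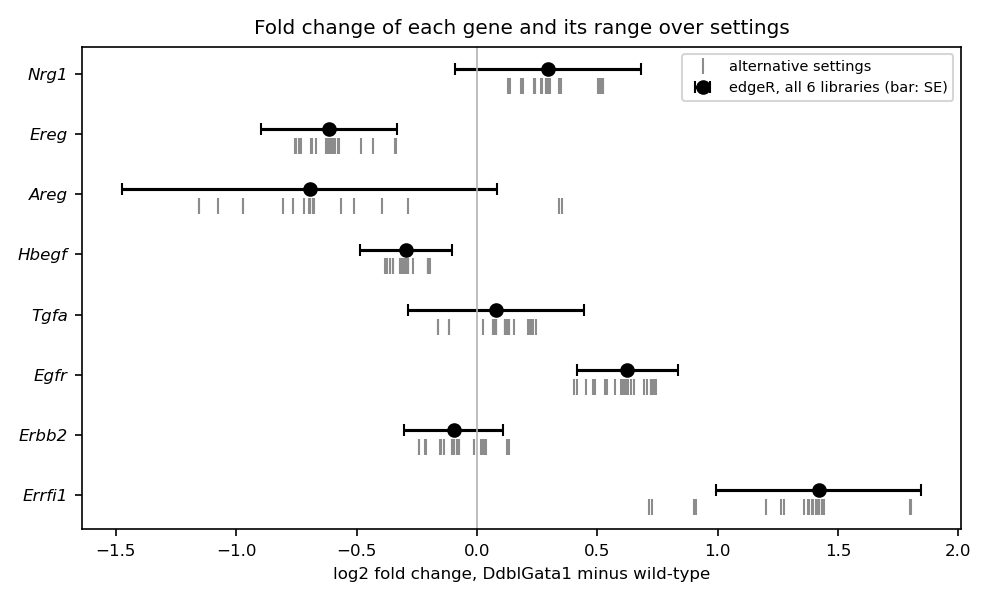
Log2 fold change, DdblGata1 minus wild-type, of the 8 genes by edgeR (points, with bars for the SE, all 6 libraries) and under each alternative setting (grey ticks). Errfi1 ranged from 0.72 to 1.81 and Egfr from 0.41 to 0.74 over the settings, while ticks of Areg, Tgfa and Erbb2 lay on both sides of 0.

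Of 13 genes that restrain ErbB receptors or take them off the surface, 3 passed an unadjusted p of 0.05 by edgeR, all higher in DdblGata1, against 6.03% of all genes higher, and the median log2 fold change was 0.24. Besides Errfi1 these were Cblb and Lrig2. Without Errfi1, 2 of 12 passed, and the median log2 fold change was 0.18. Cblb, a ubiquitin ligase that marks active receptors for breakdown, had 38.7, 57.8 and 44.9 CPM in DdblGata1 replicates 4, 9 and 10 and 26.4, 32.0 and 30.7 CPM in wild-type replicates 1, 3 and 4 (log2 fold change 0.67 ± 0.19 SE; adjusted p 0.392 by edgeR). Lrig2, a relative of the receptor inhibitor Lrig1, had 34.3 to 37.5 CPM in DdblGata1 and 21.1 to 31.7 CPM in wild-type libraries. Sh3kbp1, an adaptor that binds Cbl proteins, had log2 fold change 0.37 with an unadjusted p of 0.0702. Unlike Errfi1, neither Cblb nor Lrig2 had DdblGata1 replicate 4 at the wild-type level.

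Of 6 genes that free the ligands from the membrane, 3 passed an unadjusted p of 0.05 by edgeR, all higher in DdblGata1, against 6.03% of all genes higher, with a median log2 fold change of 0.29. Adam17, the main sheddase of EGFR ligands, had 70.2, 75.3 and 117 CPM in DdblGata1 replicates 4, 9 and 10 and 60.1, 56.1 and 63.3 CPM in wild-type replicates 1, 3 and 4. No DdblGata1 value overlapped the wild-type values (log2 fold change 0.55 ± 0.21 SE; adjusted p 0.461 by edgeR). Adam12, a sheddase of HB-EGF, had 448, 396 and 595 CPM in DdblGata1 and 145, 383 and 278 CPM in wild-type libraries, and Adam9 had 110 to 132 CPM in DdblGata1 and 78.0 to 103 CPM in wild-type. Adam10, which sheds betacellulin and EGF, had log2 fold change 0.20 with overlapping groups. Without wild-type replicate 1, 0 of the 6 passed in either direction by edgeR and 2 passed by DESeq2. Leaving out DdblGata1 replicate 10 gave 0 by both tools, and leaving out wild-type replicate 3 or 4 gave 1 by edgeR. Over all genes, edgeR gave 7.87%, 5.37%, 9.21% and 9.42% in either direction in these fits, in that order. With all 6 libraries and the surrogate variables, 1 passed by both tools.

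Downstream, 3 of 16 adaptors and members of the ERK cascade passed an unadjusted p of 0.05 by edgeR, all higher in DdblGata1, against 6.03% of all genes higher, with a median log2 fold change of 0.06. They were Sos1 (log2 fold change 0.35) and Sos2 (0.36), which load Ras with GTP, and the kinase Braf (0.40), each without overlap between groups. With all 6 libraries, upper quartile scaling in edgeR gave 0 in either direction (DESeq2 gave 3 higher), and the surrogate variables gave 1 higher and 1 lower by edgeR and 0 by DESeq2. Leaving out DdblGata1 replicate 9 gave 0 higher by edgeR and 0 by DESeq2. Leaving out DdblGata1 replicate 10 or wild-type replicate 1 or 3 gave 1 by edgeR. Over all genes, edgeR gave 6.56%, 5.37%, 7.87% and 9.21% in either direction in these fits, in that order.

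Among 15 measured feedback inhibitors and targets of ERK, 3 were higher and 1 was lower in DdblGata1 at an unadjusted p under 0.05 by edgeR, against 6.03% of all genes higher and 4.23% lower, and the median log2 fold change was -0.05. Egr1, a transcription factor induced within minutes of ERK activation, had 2201, 2586 and 2356 CPM in DdblGata1 replicates 4, 9 and 10 and 1519, 1712 and 1567 CPM in wild-type replicates 1, 3 and 4. All DdblGata1 libraries, replicate 4 included, were above the wild-type ones, and the log2 fold change was 0.57 ± 0.17 (SE; adjusted p 0.402 by edgeR and 0.0165 by DESeq2). Myc, a growth-related transcription factor, had log2 fold change 0.57, and Spred1, which restrains Ras, had 0.47. Spry1, a feedback inhibitor of receptor signalling, went the other way with -0.41, at 56.4 to 79.3 CPM in DdblGata1 and 82.6 to 101 CPM in wild-type libraries. Leaving out DdblGata1 replicate 9 gave 0 genes in either direction by edgeR (DESeq2 1 higher and 0 lower). Leaving out DdblGata1 replicate 10 gave 1 higher and 0 lower, and leaving out DdblGata1 replicate 4 gave 4 higher and 3 lower. Over all genes, edgeR gave 6.56%, 5.37% and 17.8% in either direction without DdblGata1 replicates 9, 10 and 4 in that order. Leaving out wild-type replicate 1 or 3 gave 2 higher and 0 lower, and with all 6 libraries the surrogate variables or scaling by library totals gave 3 higher and 0 lower by edgeR.

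Errfi1 is itself induced by growth factors, stress and glucocorticoids, so lists of immediate early genes and of glucocorticoid response genes were described beside it. Of 24 immediate early genes, 16 were higher and 0 lower in DdblGata1 at an unadjusted p under 0.05 by edgeR, against 6.03% of all genes higher and 4.23% lower, with a median log2 fold change of 0.50, and DESeq2 called 4 of them higher. These 4 were Zfp36, which encodes an RNA-binding protein that shortens mRNA life (log2 fold change 0.97), the cytokine signalling inhibitor Socs3 (0.70), the transcription factor Klf6 (0.65) and Egr1. Among single libraries left out, DdblGata1 replicate 9 brought the edgeR count to 3 and DdblGata1 replicate 10 to 9. Wild-type replicates 3 and 4 brought it to 8 and 7. Over all genes, edgeR gave 6.56%, 5.37%, 9.21% and 9.42% in either direction in these fits, in that order. Averaged over the list, log2 CPM was 7.45, 7.89 and 7.51 in DdblGata1 replicates 4, 9 and 10 and 7.20, 7.13 and 7.21 in wild-type replicates 1, 3 and 4. This list was highest in DdblGata1 replicate 9, and Errfi1 in DdblGata1 replicate 10. In DdblGata1 replicate 4 the list stood at 7.45, above the 7.13 to 7.21 of wild-type libraries. Errfi1 in that library also lay above the wild-type values, though only just.

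Of 15 glucocorticoid response genes, Errfi1 among them, 4 were higher and 0 lower in DdblGata1 at an unadjusted p under 0.05 by edgeR. Over all genes 6.03% were higher and 4.23% lower. Without Errfi1, 3 of 14 were higher and 0 lower, and the median log2 fold change of the 14 was 0.49. On the list of 15, leaving out DdblGata1 replicate 10 gave 2 higher, against 5.37% of all genes in either direction by edgeR. Leaving out DdblGata1 replicate 4 gave 8 higher and 1 lower, against 17.8% of all genes in either direction. Cebpd, a transcription factor, had 37.2, 56.6 and 69.0 CPM in DdblGata1 replicates 4, 9 and 10 and 22.8, 30.1 and 23.9 CPM in wild-type replicates 1, 3 and 4 (log2 fold change 1.08 ± 0.24 SE; adjusted p 0.384 by edgeR and 0.0119 by DESeq2). Its DdblGata1 libraries stood in the same order as for Errfi1, but DdblGata1 replicate 4 lay further above the wild-type libraries than for Errfi1. Whether glucocorticoid or immediate early responses had a part in the Errfi1 value was not tested. Dusp1, a phosphatase of MAP kinases that is also on the immediate early list, had log2 fold change 0.48, and Zbtb16, a transcription factor, had 1.95 with overlapping groups. Without Errfi1, log2 CPM averaged over the list was 5.06, 5.31 and 5.81 in DdblGata1 and 4.80, 5.11 and 4.66 in wild-type libraries, so that DdblGata1 replicate 4 lay within the wild-type range and replicates 9 and 10 above it.

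**Figure D5:**
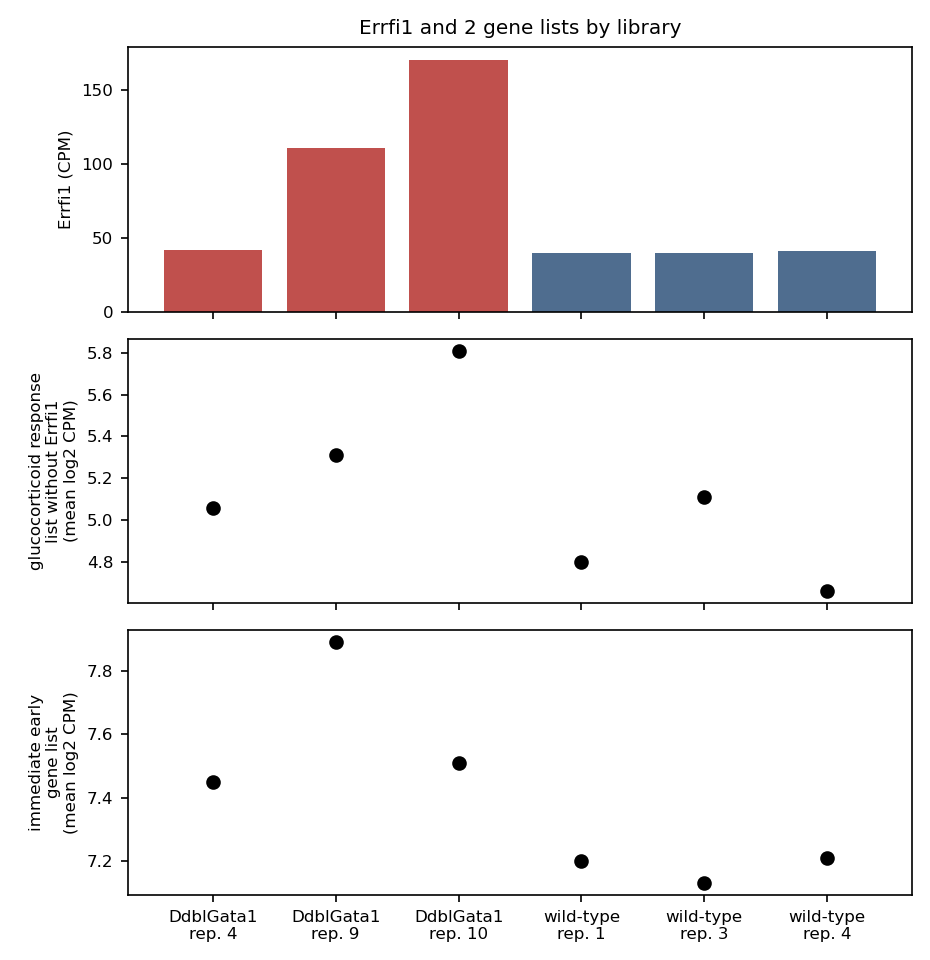
Errfi1 in CPM (top), and the mean log2 CPM of the glucocorticoid response list without Errfi1 (middle) and of the immediate early genes (bottom), by library, DdblGata1 left of wild-type. Errfi1 and the glucocorticoid response list both had DdblGata1 replicates 10 and 9 highest and second highest, with DdblGata1 replicate 4 near the wild-type libraries. The immediate early list was highest in DdblGata1 replicate 9, with all DdblGata1 libraries above the wild-type ones. The part of either response in the Errfi1 value was not tested.

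For each member, the genes nearest in pattern were found over the 6 libraries as those with the smallest root mean square difference in centred log2 CPM, among 11693 genes with a mean log2 CPM of at least 2. Errfi1 was nearest to Map3k8, a kinase that can activate the ERK cascade (root mean square difference 0.27), to Gm13212 (0.27) and to Rnf214 (0.31). Map3k8 had 8.76, 22.0 and 23.7 CPM in DdblGata1 replicates 4, 9 and 10 and 5.98, 9.42 and 6.91 CPM in wild-type replicates 1, 3 and 4, so DdblGata1 replicate 4 lay among the wild-type values and replicates 9 and 10 above them. The other members except Areg had a nearest gene within 0.11, and Errfi1 spanned a wider range than they did, 2.11 on the log2 scale.

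Egfr was nearest to Klf12 (0.06), Abca8a (0.07) and Ammecr1 (0.07). Abca8a, an ABC transporter, had 361, 292 and 368 CPM in DdblGata1 replicates 4, 9 and 10 and 137, 247 and 240 CPM in wild-type replicates 1, 3 and 4, so it shared with Egfr the low value of wild-type replicate 1. Ereg was nearest to Sorl1 (0.11), Igfbp3 (0.11) and Smtnl2 (0.14), all highest in wild-type replicate 4. Igfbp3, a binding protein of insulin-like growth factors, had 277, 276 and 263 CPM in DdblGata1 and 308, 332 and 513 CPM in wild-type libraries. Near to Hbegf were Nedd4l (0.05) and Enpp1 (0.06), and Erbb2 was nearest to Mettl15 (0.04), Swi5 (0.06) and Sec31a (0.06). Nrg1 was nearest to Pspc1 (0.10) and Dtnb (0.11), and Tgfa to Ttc39c (0.10), Sh3bp1 (0.13) and Mob2 (0.13). The genes nearest to Areg, Folr1 (0.32), Ints6l (0.34) and Ggact (0.35), shared its highest value in wild-type replicate 1.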

How the data were processed

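Stranded bulk RNA libraries of sorted fibroblasts were assigned to DdblGata1 or wild-type by their titles. Per the submitters' processing notes, the tools include bcl2fastq 2.2 and kallisto, beside R 4.2.2 and DESeq2, and the builds are mm10 and GRCm38.p6, with no role stated for any. The authors deposited a gene table of estimated counts (expected counts) in whole numbers. No gene in it falls below 10 counts in more than 3 libraries. Per the file headers, the transcript files hold estimated counts, TPM and other values, namely transcript lengths in bases. Of the gene table's values, 99.7% equalled length-scaled TPM within 1% plus 1 count, and plain transcript sums matched for 26.2%. The deposited sample sheet holds a size factor per library (a ratio) and surrogate variables (a score).

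The members and gene lists were chosen with earlier results of these data known. The gene comparison used edgeR 4.0.16 under R 4.3.3 (TMM scaling, filterByExpr, robust quasi-likelihood, Benjamini-Hochberg over 15238 genes). The SE is the log2 fold change divided by the square root of its F statistic, and CPM are TMM-scaled. Lists are described by counts and medians, with no set test. Text names all members, all family ligands and receptors, the 4 genes of smallest p per other list and the 3 nearest genes per member, except a few that are not reported here. Transcript usage used diffSpliceDGE with Simes p on rounded counts. Transcripts were assigned with GENCODE on GRCm38. Alternatives were DESeq2 1.42.0, limma 3.58.1 (voom, and trend on log2(TPM + 0.5) and log2(TPM + 0.1)), other scalings and filters, surrogate variables, plain sums and leaving out each library. Scripts were tested on simulated data. Opposite-strand genes overlap 6 of the members, and the handling of strand in counting is not stated in the sources used.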

Additional observations from a re-analysis of the deposited data

How the results depend on the processing

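With all 6 libraries 0 genes were called by edgeR under every scaling, filter and covariate tried (1467 to 1899 at an unadjusted p under 0.05, and 1564 as reported) and 0 by limma (1556 to 1629), against 214 with DESeq2 and 449 with DESeq2 plus the deposited surrogate variables. Leaving out 1 library gave 0 to 1 genes with edgeR, and 43 (without DdblGata1 replicate 10) to 1025 (without DdblGata1 replicate 4) with DESeq2, with 84 without DdblGata1 replicate 9 and 106, 239 and 165 without wild-type replicates 1, 3 and 4. DESeq2 without each library and DESeq2 with surrogate variables were chosen after seeing the data. Errfi1 was called by DESeq2 (log2 fold change 1.41), by DESeq2 with surrogate variables (0.72, adjusted p 0.0479) and by DESeq2 without DdblGata1 replicate 4 (1.80, adjusted p 6.05e-11), and over the leave-outs it ranged from 0.90 to 1.81. Egfr was called only by DESeq2 with surrogate variables (0.48, adjusted p 0.0442). With surrogate variables Erbb2 turned to 0.13 in edgeR and 0.12 in DESeq2. Over leave-outs, Areg ranged from -1.16 to 0.352 and was 0.34 in edgeR without wild-type replicate 1. Tgfa, over both tools, ranged from -0.164 to 0.244, with -0.16 in edgeR without DdblGata1 replicate 4 and -0.115 in both tools without wild-type replicate 4. Erbb2 ranged from -0.242 to 0.036 (-0.241 to 0.029 in edgeR) and was 0.026 in DESeq2 without wild-type replicate 1. The cause was not tested. Nrg1, Ereg and Hbegf kept their direction in all 25 alternatives and passed in none, and Egfr and Errfi1 kept theirs in all 25.

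With surrogate variables the list medians were -0.35 (EGF family ligands), 0.072 (receptor inhibitors and turnover) and -0.013 (adaptors and ERK cascade). The last was 0.14 on log2(TPM + 0.5) and on log2(TPM + 0.1), and -0.002 with upper quartile scaling. Over leave-outs it ranged from -0.039 to 0.089, and the ligand median from -0.31 to 0.23. Other list medians and the transcript usage calls did not move past their limits. Areg has no value with a mean of at least 1 CPM, and DESeq2 gave it no adjusted p with the surrogate variables or without wild-type replicate 4, DdblGata1 replicate 4 or DdblGata1 replicate 9, so those are not among its values. No paired analysis was possible because the groups share only 1 replicate number. Counts of 6 to 105 per library limit Areg and Nrg1.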
